A study of Homo sapiens with 8 samples.

Results

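Amino acid transporter genes were examined in HCT116 cells in which CDK8 had been knocked down. The 10 genes were SLC38A5, SLC38A1, SLC38A2, SLC7A1, SLC7A5, SLC7A11, SLC3A2, SLC1A4, SLC1A5 and SLC6A9, out of 18417 genes with a probe set of their own on the array. They were found by their annotated symbols, through 11 probe sets, since SLC1A5 has 2. SLC38A5 was chosen because it showed the largest fall in shCDK8 cells, so its differences are given as a description without a test. The other 9 were chosen by name as plasma membrane carriers.

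HCT116 is an established human colorectal carcinoma line. The cells expressed a short hairpin RNA, which was a control in the shControl line and aimed at CDK8 in the shCDK8 line. CDK8 is the kinase of the Mediator kinase module. All cells had been kept without serum in McCoy's medium for 40 h and were harvested then (starved) or after a further 30 min in the same medium with 10% fetal bovine serum. Each of the 4 groups has 2 arrays. No label says whether duplicates came from separate cultures. The p-values then reflect only how far these samples differ, and that spread may be technical. The labels name 1 hairpin per line, so loss of CDK8 and any other difference between the lines cannot be told apart. RNA per cell and the mix of cells in a dish cannot be told apart in such samples.

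Levels are log2 probe set values, for which a difference of 1 is a 2-fold change. The median over all probe sets lay between 6.44 and 6.51 in the 8 arrays, and precision is limited by how few arrays there are. The probe set of the targeted gene, 7968199, which the annotation pairs with CDK8 and ADRA1B, read 4.53-fold lower in shCDK8 than in shControl cells before serum and 4.45-fold lower after it. All 10 epithelial markers looked at, EPCAM and CDH1 among them, had a mean level above the 25th percentile of all genes. So did 6 of 9 fibroblast and mesenchymal and 4 of 8 blood and endothelial markers, so this bar is not particular to epithelial genes. Between the lines 2 epithelial markers rose and 2 fell in starved shCDK8 cells, and 3 rose and 2 fell after serum. These are 40% and 50% of the epithelial markers, beside 13.4% and 14.2% of all genes. The mean level of 9 fibroblast and mesenchymal markers lay between 5.79 and 5.87 in every array, with ACTA2 the 1 marker past the test (0.37 higher in starved shCDK8 cells and 0.50 after serum). That of 8 blood and endothelial markers lay between 5.21 and 5.42, with none past it (limma, adjusted p below 0.05 over all genes). In starved cells 1 of the 8 had an unadjusted p below 0.05, beside 25.3% of all genes. Any part of these markers in the results was not tested.

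Cells take up amino acids through carriers that differ in the ions they use and in whether they exchange one amino acid for another. System N and system A carriers of the SLC38 family bring in small neutral amino acids with sodium, and the N carriers, SLC38A5 among them, also move protons the other way and carry glutamine, histidine, asparagine, serine and glycine. Exchangers such as SLC1A5 and SLC7A5 then trade intracellular glutamine and other amino acids against ones the cell lacks. Amino acids inside the cell are sensed by GCN2, which raises translation of the transcription factor ATF4, and by mTORC1 at the lysosome, and several carrier genes are known ATF4 targets.

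SLC38A5, also called SNAT5, had by far the largest difference between the lines among the 10 genes. Its probe set, 8172425, read 8.47 and 8.50 in the starved shControl arrays and 8.40 and 8.44 in the serum-treated ones. In shCDK8 cells it read 5.57 and 5.18 when starved and 5.56 and 5.52 after serum. All 4 shCDK8 arrays were far below all 4 shControl arrays, and the gap between the lines was many times the gap between any pair of duplicates.

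The level was 8.64-fold lower in starved shCDK8 cells (log2 -3.11 ± 0.11 SE, n = 2 arrays per group) and 7.35-fold lower after serum (-2.88 ± 0.11). Averaged over both times it was 7.97-fold lower (-2.99 ± 0.08). It ranked first among all falls in starved cells, ahead of RGS2 (-2.85), a regulator of G protein signalling, and first in the average. After serum it ranked 2nd, behind SPTSSB (-2.92), a subunit of serine palmitoyltransferase. Of the 4 shCDK8 arrays, 2 read below 5.55, the 25th percentile of mean level over all genes. The files used here hold no detection call, so whether SLC38A5 RNA is detected at all in shCDK8 cells was not tested. If its probe set is at background there, the folds above are lower bounds.

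**Figure D1:**
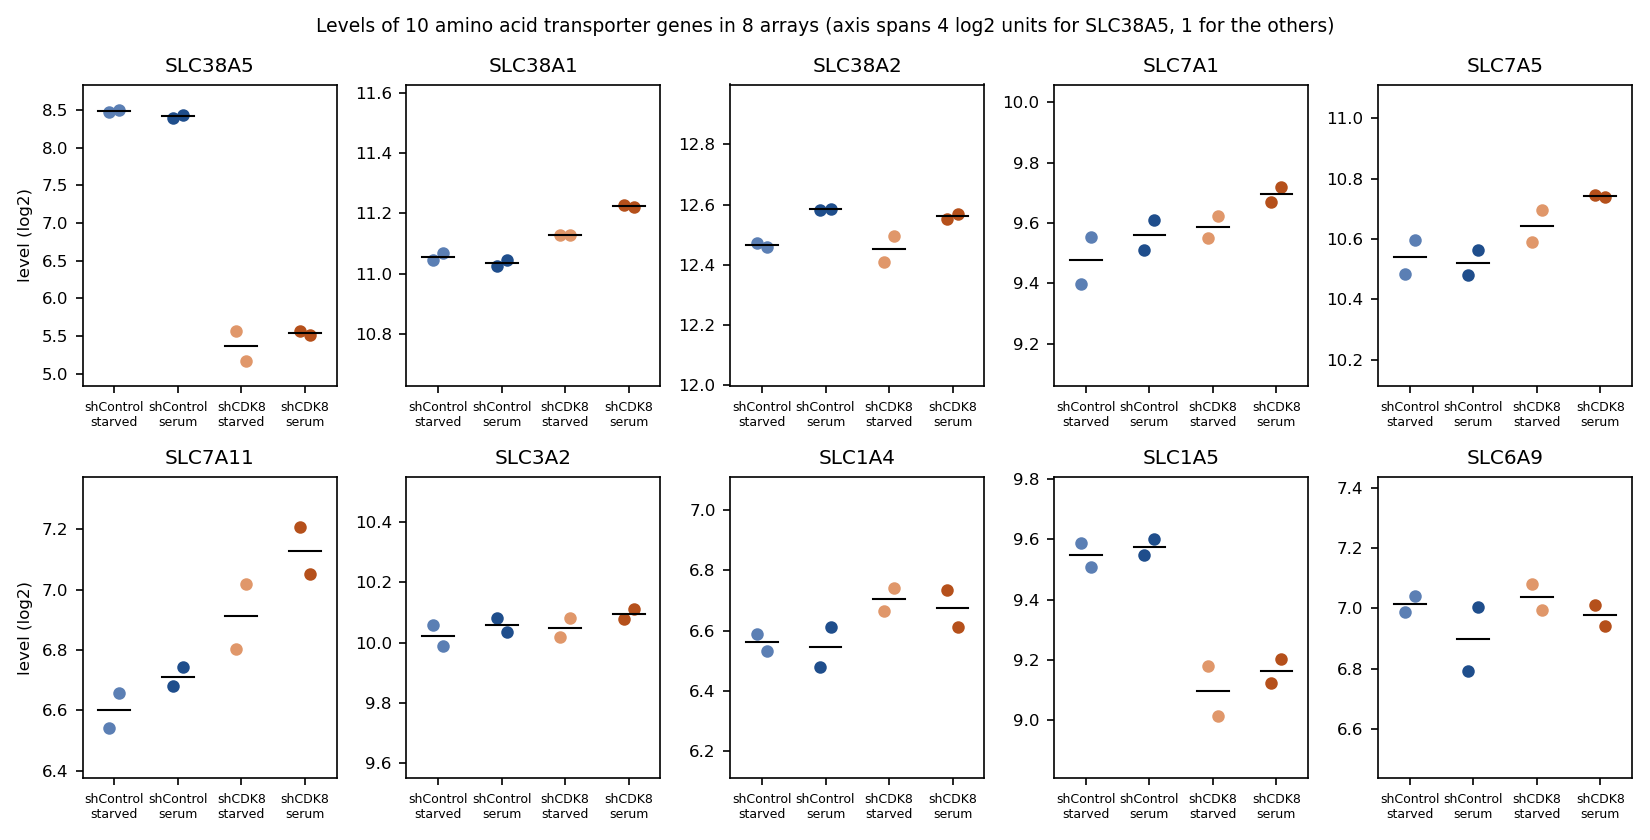
Level (log2, vertical axis) of each of the 10 genes in the 4 groups (horizontal axis), with a point for each of the 2 arrays of a group and a line at their mean. The axis covers 4 log2 units for SLC38A5 and 1 for the others. SLC38A5 lies between 8.40 and 8.50 in shControl and between 5.18 and 5.57 in shCDK8 cells. SLC1A5, SLC7A11 and SLC38A1 also separate the lines, SLC1A5 lower and the others higher in shCDK8 cells.

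The serum differences of SLC38A5 use the arrays it was chosen on, so they too are a description. It changed by -0.07 ± 0.11 SE in shControl cells and by 0.17 ± 0.11 in shCDK8 cells, both small beside the gap between the lines. The difference between these responses was 0.23 ± 0.15. The 0.17 in shCDK8 cells rests on the low starved array 2 and was -0.03 without it.

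The 250 bases before the RefSeq start site of SLC38A5 are shown because this is the member whose RNA differed most. Capitals mark the palindromic E-box CACGTG, a sequence bound by MYC, MAX and USF proteins, which begins 206 bases before the start. The stretch lies on the minus strand at chrX:48470261-48470510 of GRCh38.p14 and has a GC content of 60.8%.
SLC38A5: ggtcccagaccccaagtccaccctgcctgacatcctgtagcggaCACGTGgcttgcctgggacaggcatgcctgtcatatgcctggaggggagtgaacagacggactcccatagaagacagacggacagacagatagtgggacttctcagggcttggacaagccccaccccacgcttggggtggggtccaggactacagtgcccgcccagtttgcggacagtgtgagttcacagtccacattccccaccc

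The nearest protein-coding genes on either side of SLC38A5 on the X chromosome with a probe set of their own were measured too. FTSJ1, a tRNA methyltransferase, EBP, a sterol isomerase, and TBC1D25 lie on one side. Between the lines they differed by -0.01, -0.08 and -0.02 in starved cells and by 0.05, -0.22 and -0.19 after serum. SSX5, SSX1 and SSX3, cancer-testis antigens, lie on the other and differed by between -0.11 and 0.17 over both times. None of these 12 differences passed limma's test (adjusted p from 0.102 to 0.969; 2 of them, EBP and TBC1D25 after serum, had an unadjusted p below 0.05). Over all genes 13.4% passed in starved cells and 14.2% after serum, and 25.3% and 26.1% had an unadjusted p below 0.05. The SSX genes had group means between 4.14 and 4.67, below the 25th percentile of 5.55, so a fall could hardly have shown in them. FTSJ1, EBP and TBC1D25 had group means between 7.14 and 9.17.

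The genes whose 8 values moved most like those of SLC38A5 were SPTSSB, RGS2, DPP4, SCG2 and PALLD. Likeness was the root mean square of the gap between a gene and SLC38A5 over the 8 arrays, after each gene's own mean was removed, in log2 units. It was 0.15 for SPTSSB, 0.23 for RGS2, 0.25 for the peptidase DPP4, 0.27 for the secretory granule protein SCG2 and 0.42 for the actin-associated PALLD. RGS2 read 0.16 ± 0.07 higher after serum in shControl and 0.52 ± 0.07 higher in shCDK8 cells. SCG2 read 0.16 ± 0.08 and 0.35 ± 0.08 higher. SPTSSB, DPP4 and PALLD changed by between 0.01 and 0.15 in shControl and between 0.02 and 0.11 in shCDK8 cells. Among the transporters SLC1A5 came nearest, at 1.28, and SLC7A11 was farthest, at 1.69.

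**Figure D2:**
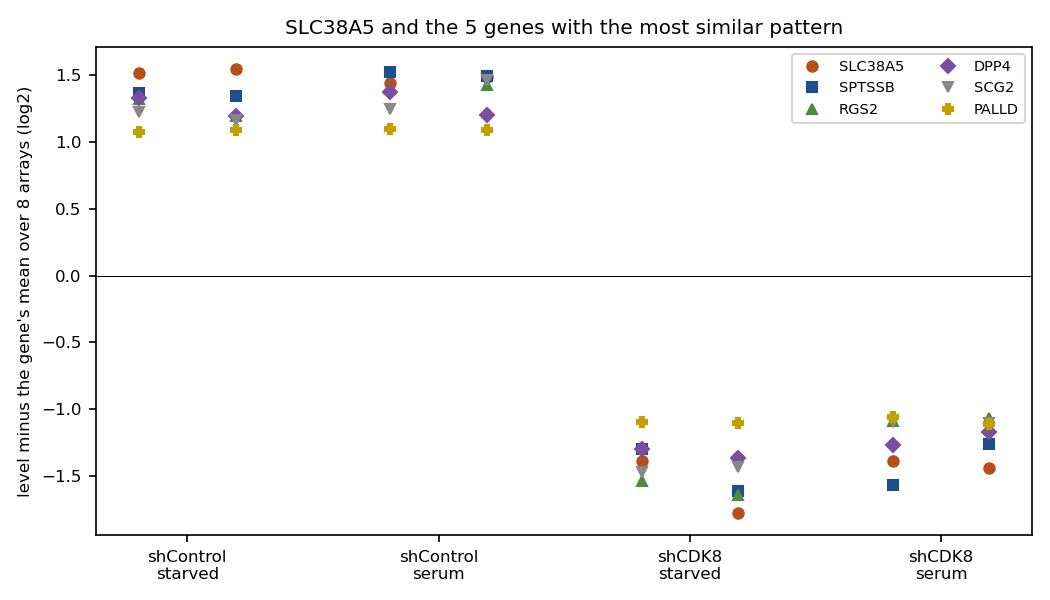
Level of SLC38A5 and of SPTSSB, RGS2, DPP4, SCG2 and PALLD in each of the 8 arrays, less the gene's own mean over the arrays (log2, vertical axis), by group (horizontal axis). Each symbol is 1 array. All 6 genes lie above 0 in the shControl arrays and below 0 in the shCDK8 arrays. They were chosen for that pattern.

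The 2 other SLC38 carriers among the members differed between the lines by 0.19 log2 units or less at each time. SLC38A1 and SLC38A2, the widely expressed system A carriers, are neighbouring genes on chromosome 12. SLC38A1 read 11.05 and 11.07 in starved and 11.03 and 11.04 in serum-treated shControl cells, and 11.13 in both starved and 11.23 and 11.22 in both serum-treated shCDK8 arrays. The shCDK8 arrays were the higher ones at both times without overlap, but the differences of 0.07 ± 0.06 and 0.19 ± 0.06 did not pass (limma, adjusted p = 0.535 and 0.0691). Averaged over both times SLC38A1 was 0.13 ± 0.04 higher (95% interval 0.03 to 0.23), which did not pass either (limma, adjusted p = 0.0548). After serum the call was made when the prior variance was allowed to follow intensity (adjusted p = 0.00247), with dim genes left out (0.0428) and with cyclic loess (0.0490). SLC38A2, a known target of ATF4, differed by -0.01 ± 0.06 in starved cells (95% interval -0.16 to 0.13) and by -0.02 ± 0.06 after serum (-0.17 to 0.12).

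SLC1A5 was the 1 of the 9 other members whose lower level in shCDK8 cells passed the test. SLC1A5, also called ASCT2, is a sodium-dependent exchanger known for glutamine uptake in cancer cells. Its brighter probe set, 8037835, read 9.59 and 9.51 in starved and 9.55 and 9.60 in serum-treated shControl cells. In shCDK8 cells it read 9.18 and 9.01 when starved and 9.12 and 9.20 after serum, so the lines did not overlap. The level fell 1.37-fold in starved cells (log2 -0.45 ± 0.08, limma adjusted p = 0.00385) and 1.33-fold after serum (-0.41 ± 0.08, adjusted p = 0.00614).

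The call after serum ended without serum array 2 of shControl (adjusted p = 0.0517) and with the mean of both SLC1A5 probe sets (-0.21, adjusted p = 0.0878). The other probe set, 8029854, read 6.90 and 6.94 in starved and 6.65 and 6.90 in serum-treated shControl cells, and 6.63 and 6.78 in starved and 6.89 and 6.66 in serum-treated shCDK8 cells. It differed by -0.22 in starved cells and by -0.01 after serum. The 2 probe sets thus pointed the same way in starved cells and disagreed after serum, where only the brighter one separated the lines. SLC1A4, or ASCT1, a related exchanger of alanine, serine, cysteine and threonine, did not pass, at 0.14 ± 0.08 in starved cells and 0.13 ± 0.08 after serum (adjusted p = 0.293 and 0.347).

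SLC7A11 went the other way. SLC7A11, or xCT, exports glutamate in exchange for cystine, the precursor for glutathione. It read 6.54 and 6.66 in starved and 6.68 and 6.74 in serum-treated shControl cells. In shCDK8 cells it read 6.80 and 7.02 when starved and 7.21 and 7.05 after serum, above shControl at each time. It was 1.24-fold higher in starved cells, which did not pass (log2 0.31 ± 0.09, limma adjusted p = 0.0525), and rose 1.34-fold after serum (0.42 ± 0.09, adjusted p = 0.0137). Averaged over both times it rose by 0.36 ± 0.06 (adjusted p = 0.00258), under every alternative run.

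The call of SLC7A11 after serum ended without serum array 1 (adjusted p = 0.0899) or array 2 (0.0536) of shControl or serum array 1 of shCDK8 (0.0957). In starved cells the call was made without starved array 1 of shCDK8 (adjusted p = 0.0370), with dim genes left out (0.0349), median centring (0.0343), an intensity trend (0.0421) and cyclic loess (0.0479).

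SLC7A5 and SLC3A2 form a heterodimer in the membrane. SLC7A5, or LAT1, is the light chain that exchanges large neutral amino acids such as leucine against glutamine, and SLC3A2, or CD98, is the heavy chain that it shares with SLC7A11. SLC7A5 read 10.48 and 10.60 in starved and 10.48 and 10.56 in serum-treated shControl cells, and 10.59 and 10.70 in starved and 10.74 in both serum-treated shCDK8 arrays. The starved arrays overlapped and the serum-treated ones did not. The difference was 0.10 ± 0.07 in starved cells and 0.22 ± 0.07 after serum (limma, adjusted p = 0.434 and 0.0760). With an intensity trend the difference after serum passed (adjusted p = 0.00718).

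Averaged over both times SLC7A5 rose by 0.16 ± 0.05 (limma, adjusted p = 0.0467). That call ended without any 1 of 7 arrays: starved array 1 (adjusted p = 0.132), serum array 1 (0.152) or serum array 2 (0.0693) of shControl, and starved array 1 (0.0507), starved array 2 (0.151), serum array 1 (0.1004) or serum array 2 (0.0992) of shCDK8. SLC3A2 lay between 9.99 and 10.08 in the shControl and between 10.02 and 10.11 in the shCDK8 arrays. It differed by 0.03 ± 0.07 in starved cells (95% interval -0.12 to 0.17) and by 0.04 ± 0.07 after serum (-0.11 to 0.18). The heavy chain thus showed no difference that these arrays could call.

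The remaining carriers did not pass between the lines. SLC7A1 lay between 9.40 and 9.61 in the shControl and between 9.55 and 9.72 in the shCDK8 arrays. SLC6A9 lay between 6.79 and 7.04 and between 6.94 and 7.08, and the lines overlapped at both times for SLC6A9. For SLC7A1 they overlapped in starved cells and not after serum, where shControl read 9.51 and 9.61 and shCDK8 9.67 and 9.72. SLC7A1, or CAT-1, the main uptake route for arginine and lysine, differed by 0.11 ± 0.08 in starved cells and 0.14 ± 0.08 after serum (limma, adjusted p = 0.422 and 0.312). SLC6A9, or GLYT1, a sodium- and chloride-dependent glycine transporter, differed by 0.02 ± 0.08 and 0.08 ± 0.08 (adjusted p = 0.900 and 0.631).

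**Figure D3:**
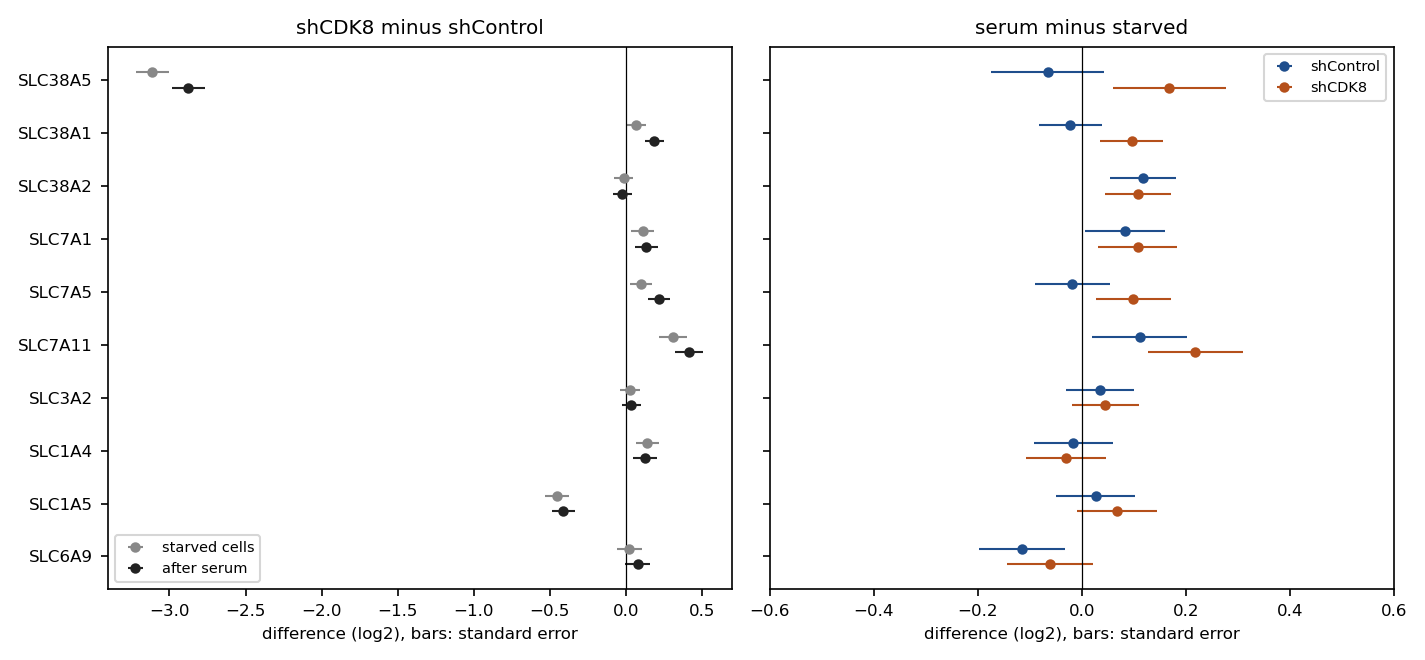
Differences on the log2 scale (horizontal axis) with standard errors as bars for the 10 genes (vertical axis), between the lines at each time (left) and between serum-treated and starved cells in each line (right, on a finer axis). SLC38A5 stands at -3.11 and -2.88 between the lines while the other 9 lie between -0.45 and 0.42. All serum differences lie between -0.12 and 0.22.

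By count, 1 of the 9 members other than SLC38A5 passed in starved cells, SLC1A5 downward. Over all genes 13.4% passed in that comparison. After serum 2 of the 9 passed, SLC7A11 upward and SLC1A5 downward, against 14.2% of all genes, and in the average over both times 3 did, SLC7A11 and SLC7A5 upward and SLC1A5 downward, against 23.3%. These shares are of the size of the background. The starved count was 2 without starved array 1 of shCDK8. The count after serum was 1 without serum array 1 of either line and 0 without serum array 2 of shControl. The median difference of the 9 was 0.07 in starved cells and 0.13 after serum, beside -0.01 over all genes at both times, and 7 of the 9 were above 0 at each time. These comparisons share no array with each other, but both set the same 2 lines side by side, so a fixed difference between the lines enters both.

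Serum for 30 min moved none of the 9 members other than SLC38A5 past the test in either line (limma, adjusted p below 0.05), where it moved 0.462% of all genes in shControl cells (0.424% rose and 0.038% fell) and 0.255% in shCDK8 cells (0.25% rose and 0.00543% fell). At an unadjusted p below 0.05 there were 0 of 9 in shControl and 1 of 9 in shCDK8 cells, SLC7A11 (0.22 ± 0.09, adjusted p = 0.505). Over all genes 9.02% and 9.59% had such a p-value. Averaged over both lines none passed, against 0.76% of all genes (0.684% rose and 0.076% fell). In that average 2 had an unadjusted p below 0.05, beside 14.5% of all genes. With an intensity trend 1 passed there, SLC38A2, which read 12.47 and 12.46 in starved and 12.58 and 12.59 in serum-treated shControl cells, and 12.41 and 12.50 in starved and 12.55 and 12.57 in serum-treated shCDK8 cells. Its serum arrays were the higher ones in both lines, by 0.12 ± 0.06 and 0.11 ± 0.06. None of the 9 passed the test of the difference between the lines' responses, nor did any gene on the array. Of the 9, 0 had an unadjusted p below 0.05 there, beside 3.82% of all genes.

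The promoters of the members were searched for letters that are known to be bound by factors of amino acid transport genes. RefSeq windows of GRCh38.p14 that run from 250 bases before to 50 bases after a start site were at hand for 9 of the 10 members, 15 windows in all, and not for SLC7A11. Both strands were read. The E-box CACGTG was found in windows of 3 members, SLC38A5, SLC7A5 and SLC1A5, or 3 of 15 windows, beside 7.26% of all 35116 windows. TGATGNAA, the core of the amino acid response element bound by ATF4 with a C/EBP partner, was found in windows of 5 members, SLC1A4, SLC1A5, SLC3A2, SLC38A1 and SLC7A1, or 5 of 15 windows, beside 3.62% of all windows. Of these matches only that of SLC1A5 lies wholly before a start site. Those of SLC1A4 and SLC38A1 begin 7 and 4 bases before a start and run over it. Those of SLC7A1 and SLC3A2 begin 7 and 37 bases after one. Windows of SLC38A2 held no match.

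Stretches of 30 bases are shown at the matches in other members that lie wholly before a start site, to set the sequences of SLC1A5, which fell, and SLC7A5, which did not fall, side by side. Capitals mark the match. That of SLC7A5 begins 130 bases before its first start site, at chr16:87869620-87869649, and those of SLC1A5 belong to 2 downstream start sites. The E-box of SLC1A5 begins 50 bases before its start, at chr19:46787326-46787355, and its response element core 97 bases before another, at chr19:46784893-46784922. All 3 are on the minus strand.
SLC7A5 E-box: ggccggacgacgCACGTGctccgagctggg
SLC1A5 E-box: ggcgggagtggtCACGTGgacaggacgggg
SLC1A5 response element core: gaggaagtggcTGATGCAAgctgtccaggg
The E-box thus stands in windows of SLC38A5 and SLC1A5, which were lower in shCDK8 cells, and of SLC7A5, which was not. A match is a description of the letters and was not tested as a binding site.

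Among 45 other amino acid transporter genes, all of them measured, the larger differences were those of glutamate and neutral amino acid carriers. In starved cells 7 of the 45 rose and 2 fell in shCDK8 cells, and after serum 5 rose and 3 fell (limma, adjusted p below 0.05 over all genes). Over all genes 7.13% rose and 6.28% fell in starved cells, and 7.70% rose and 6.54% fell after serum. The median of the list was -0.01 in starved cells and 0.04 after serum. The starved total of 9 was 5 without either starved array of shControl or starved array 1 of shCDK8, and 4 without its starved array 2. The total of 8 after serum was 5 without serum array 1 of shControl.

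SLC1A3, or EAAT1, a sodium-dependent transporter of glutamate and aspartate, had the largest difference of the list. It read 5.87 and 5.67 in starved and 5.80 and 5.74 in serum-treated shControl cells. In shCDK8 cells it read 6.82 and 6.89 when starved and 6.89 and 7.08 after serum, about a full log2 unit above every shControl array. It rose 2.12-fold in starved cells (1.09 ± 0.09 SE, limma adjusted p = 4.78e-05) and 2.31-fold after serum (1.21 ± 0.09, adjusted p = 2.06e-05), under all alternatives run.

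SLC1A1, or EAAT3, of the same family, read 7.85 and 7.65 in starved and 7.78 and 7.89 in serum-treated shControl cells, and 8.41 and 8.25 in starved and 8.16 and 8.38 in serum-treated shCDK8 cells. It rose by 0.58 ± 0.10 in starved cells and by 0.44 ± 0.10 after serum (limma, adjusted p = 0.00411 and 0.0172). The call after serum ended without serum array 1 of shControl (adjusted p = 0.115) or serum array 2 of shCDK8 (0.119).

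SLC6A20, a sodium- and chloride-dependent proline transporter, and SLC7A8, or LAT2, which pairs with SLC3A2 to exchange neutral amino acids, were lower. SLC6A20 read 7.12 and 7.18 in starved and 7.01 and 7.27 in serum-treated shControl cells, and between 6.59 and 6.70 in the 4 shCDK8 arrays. The fall was 0.54 log2 units in starved cells and 0.50 after serum (SE 0.09 each, limma adjusted p = 0.00369 and 0.00540). SLC7A8 read between 7.58 and 7.65 in the 4 shControl and between 7.11 and 7.23 in the 4 shCDK8 arrays. It fell by 0.45 and 0.51 (SE 0.07 each, adjusted p = 0.00209 and 9.04e-04). Both calls held at both times under all alternatives run. SLC7A8 and SLC7A5, alternative light chains for SLC3A2, thus differed in opposite directions, with the difference of SLC7A5 past the test in the average alone.

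**Figure D4:**
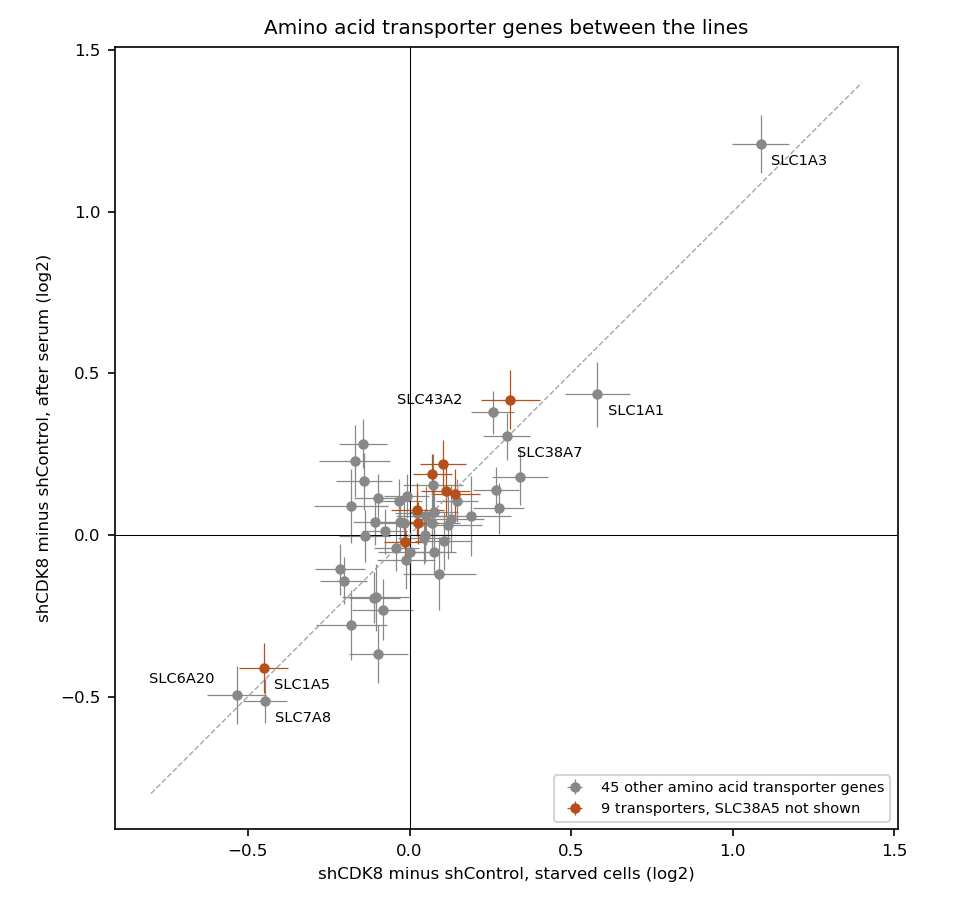
Difference between shCDK8 and shControl cells on the log2 scale in starved cells (horizontal axis) and after serum (vertical axis) for 45 other amino acid transporter genes (grey) and 9 members (orange; SLC38A5, at -3.11 and -2.88, is outside the axes). Bars are standard errors, the dashed line marks equal differences, and genes past the test at both times are named. SLC1A3 stands apart at 1.09 and 1.21.

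Genes that sense amino acids and signal to mTORC1 differed in both directions. Of 35 measured genes of the list, 3 rose and 4 fell in starved shCDK8 cells, and 4 rose and 3 fell after serum (limma, adjusted p below 0.05 over all genes). That is 20.0% of the list at each time, beside 13.4% and 14.2% of all genes. In the average over both times 10 rose and 7 fell, or 48.6% of the list, beside 23.3% of all genes. The list was not tested as a set, and its count in the average was not run under the alternatives. The sestrins, of which SESN2 is a cytosolic leucine sensor, did not move together. SESN1 rose by 0.50 ± 0.08 in starved cells and by 0.45 ± 0.08 after serum (adjusted p = 0.00256 and 0.00439), and SESN3 fell by 0.49 and 0.66 on the log2 scale (adjusted p = 0.00420 and 7.24e-04). RRAGB, a Rag GTPase that brings mTORC1 to the lysosome, rose by 0.49 ± 0.08 and 0.50 ± 0.08 (adjusted p = 0.00433 and 0.00350).

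Further members of that list were less steady. DEPDC5, a subunit of the GATOR1 inhibitor complex, fell by 0.33 in starved cells (adjusted p = 0.0237), and SEH1L, of the GATOR2 complex and the nuclear pore, by 0.35 after serum (adjusted p = 0.0252; limma). The call of DEPDC5 ended with the compared arrays fitted alone (0.0581) and without starved array 1 (adjusted p = 0.0754) or array 2 (0.112) of shControl or starved array 1 of shCDK8 (0.151). That of SEH1L ended without serum array 1 (0.109) or array 2 (0.112) of shControl or serum array 1 of shCDK8 (0.158). The starved total of 7 was 3 without either starved array of shControl or starved array 1 of shCDK8 and 4 without its starved array 2. The total of 7 after serum was 3 without serum array 1 of shControl and 4 without serum array 2 of shCDK8.

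In the amino acid response, in which GCN2 acts through ATF4, 1 of 25 measured genes rose and 2 fell in starved shCDK8 cells, and 1 rose and 3 fell after serum. These are 12% and 16% of the list, beside 13.4% and 14.2% of all genes. PHGDH, the first enzyme of serine synthesis, fell by 0.37 on the log2 scale in starved cells and by 0.35 after serum (limma, adjusted p = 0.00482 and 0.00650). DDIT3, or CHOP, a transcription factor induced by ATF4, fell by 0.91 after serum (adjusted p = 2.20e-04). DDIT4, an inhibitor of mTORC1, fell by 0.47 after serum (adjusted p = 0.00787). With serum ATF3, an ATF4 target that is also an immediate-early gene, rose by 3.18 in shControl and by 2.68 in shCDK8 cells. DDIT4 rose by 0.65 in shControl cells and differed by 0.46 ± 0.09 in shCDK8 cells, which did not pass (limma, adjusted p = 0.135). DDIT3 rose by 0.56 in shControl cells and differed by -0.0031 in shCDK8 cells. For none of these 3 genes did the difference between the responses pass, nor did it for any gene on the array. It was -0.57 ± 0.13 for DDIT3 (limma, adjusted p = 0.910, unadjusted p = 0.00201). For ATF3 it was -0.50 ± 0.30 and for DDIT4 -0.19 ± 0.13.

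Several of these calls rest on single arrays. That of PHGDH after serum ended without serum array 2 of shControl (adjusted p = 0.0566; limma). That of DDIT4 after serum ended without serum array 1 of shControl (0.0570) or of shCDK8 (0.0611). In starved cells DDIT3 fell by 0.34 (adjusted p = 0.0436) and SESN2, which also stands in the list of sensors, rose by 0.24 (adjusted p = 0.0461). The call of DDIT3 ended with cyclic loess (0.0702) and median centring (0.0562), and without starved array 1 (0.175) or 2 (0.108) or serum array 1 or 2 (0.0671 each) of shControl, or starved array 1 (0.0557) or 2 (0.247) of shCDK8. The call of SESN2 ended without any 1 of the 8 arrays (adjusted p from 0.0615 to 0.204), with the compared arrays alone (0.0867) and with median centring (0.0524). After serum SESN2 rose by 0.34 (adjusted p = 0.00900), which ended without serum array 1 of shControl (0.0834) or serum array 2 of shCDK8 (0.0548). The starved total of 3 was 1 without any starved array or either serum array of shControl, and the total of 4 after serum was 2 without serum array 1 of shControl. With serum 3 of the 25 passed in shControl and 1 in shCDK8 cells, or 12% and 4% of the list. Over all genes 0.462% and 0.255% passed, and the list was not tested as a set. The total of 3 in shControl cells was 1 without either of its serum arrays or its starved array 2.

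Enzymes that use the transported amino acids had a few larger differences. Of 15 measured serine, glycine and folate-cycle enzymes 1 rose and 2 fell in starved shCDK8 cells, and 2 rose and 2 fell after serum, or 20.0% and 26.7%. PHGDH, described above, is in this list too. MTHFD1, the cytosolic folate enzyme, fell by 0.93 and 0.90 on the log2 scale (SE 0.06 each, limma adjusted p = 1.33e-05 and 1.48e-05), and its mitochondrial relative MTHFD1L rose by 0.31 at both times (adjusted p = 0.0120 and 0.0101). Of 15 measured glutamine, glutamate and glutathione enzymes 3 fell in starved cells, and 1 rose and 2 fell after serum, or 20.0% at each time. Over all genes 13.4% and 14.2% passed. GOT1, the cytosolic aspartate aminotransferase, fell by 0.66 and 0.62 (SE 0.06 each, adjusted p = 1.06e-04 and 1.51e-04). MTHFD1 and GOT1 passed at both times under all alternatives run.

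The smaller calls in these lists depended on single arrays or on other settings (limma, adjusted p over all genes). MTHFD1L lost its call in starved cells without starved array 1 of shControl (0.0703) or either starved array of shCDK8 (0.0578 and 0.0685), and after serum without serum array 1 (0.0696) or 2 (0.0568) of shControl or serum array 2 of shCDK8 (0.0705). GSR, glutathione reductase, fell by 0.29 in starved cells (0.0186), which ended without starved array 2 of shControl (0.102) or array 1 of shCDK8 (0.122), and by 0.23 after serum (0.0494), which ended without any 1 array (0.0573 to 0.227), with the compared arrays alone (0.0669), cyclic loess (0.0625) and median centring (0.0840). PPAT, of purine synthesis, fell by 0.23 in starved cells (0.0370), which ended without any 1 array (0.0515 to 0.179), with the compared arrays alone (0.0900) and median centring (0.108). The glycine cleavage enzyme GLDC and the proline synthesis enzyme ALDH18A1 rose by 0.23 and 0.24 after serum (0.0377 and 0.0332). ALDH18A1 lost its call without any 1 serum array (0.0870 to 0.194), and GLDC without any 1 serum array or either starved array of shCDK8 (0.0519 to 0.167). Both also lost it with the compared arrays alone (0.0642 for ALDH18A1 and 0.0653 for GLDC) and median centring (0.0562 and 0.0549).

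The totals of these lists moved accordingly. That of the serine, glycine and folate-cycle enzymes after serum, 4, was 2 without serum array 1 of shControl or array 2 of shCDK8 and 1 without serum array 2 of shControl. Those of the glutamine, glutamate and glutathione enzymes, 3 at each time, were 1 without starved array 2 of shControl or array 1 of shCDK8 in starved cells, and 1 without any 1 serum array after serum.

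None of 19 measured cytosolic aminoacyl-tRNA synthetases, which load amino acids onto tRNA, passed in starved cells (limma, adjusted p below 0.05; 3 at an unadjusted p below 0.05, and 2 past adjustment with an intensity trend). Over all genes 13.4% passed there and 25.3% had an unadjusted p below 0.05. After serum 1 of the 19 passed, or 5.26%, against 14.2% of all genes. This was SARS1, which loads serine, and it rose by 0.26 ± 0.07 (limma, adjusted p = 0.0380). That call ended without any 1 serum array (0.0858 to 0.194) or starved array of shCDK8 (0.0501 each), and with median centring (0.0511). Apart from the amino acid response list, 30 min of serum moved no gene of these lists past the test in either line. At an unadjusted p below 0.05 there were 5 and 4 of the 45 other transporters and 1 and 6 of the 35 sensing genes in shControl and shCDK8 cells. Over all genes 9.02% and 9.59% had such a p-value.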

How the data were processed

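Total RNA of 8 samples was measured on Affymetrix human gene arrays, 1 per sample. The deposited log2 values were made with RMA (background correction, quantile normalization and probe summary), per the submitters' processing notes. Neither its version nor a genome build is given in the sources used here. Of 33297 probe sets, 19460 were paired with 1 gene by the array annotation, 1754 with several and 12083 with none, and 19429 matched RefSeq (GRCh38.p14) by Entrez identifier. The probe set with the highest mean stood for each of 18417 genes.

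Values were used as deposited. In limma 3.58.1 (R 4.3.3) the 4 groups each had a mean and shared a variance per gene (4 residual and 5.49 prior degrees of freedom). Two-sided p-values of each contrast were adjusted over all genes by the Benjamini-Hochberg method, with a threshold of 0.05. Errors are standard errors of the model unless given as array values. For shCDK8 against shControl in starved cells, data were simulated over 18417 genes with independent normal noise drawn from limma's fitted prior variance. Shifts of 0.5, 1, 2 and 3 were given to 50 genes each. Of these, 74% of shifts of 0.5 and 98% of shifts of 1 were recovered, and 4.12% of calls were false. Far fewer genes were shifted than the 13.4% called in the real comparison, so recovery there may differ. The false share holds for this model. The members and lists were chosen with earlier results of these data known.

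The genes named were the members, up to 4 per list and line contrast with the largest difference past the threshold, and the 5 most like SLC38A5. The neighbours of SLC38A5 were added by position, and ATF3 and ACTA2 after their values were seen. The arrays with 1 number (1 or 2) in their titles did not deviate together (r between groups from -0.19 to 0.13), so no pairing was assumed. Alternatives are given at the end. Figures were drawn with matplotlib 3.10.9.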

Additional observations from a re-analysis of the deposited data

Results flagged for a closer look

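SLC38A1 was picked out because its duplicate arrays moved in opposite directions with serum in the lines, without overlap: serum arrays were lower in shControl (-0.02 ± 0.06) and higher in shCDK8 cells (0.10 ± 0.06). The difference of 0.12 ± 0.09 did not pass limma's test over all genes (no gene did).

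GLDC, the glycine cleavage enzyme, was picked out by the same pattern, for serum in the lines and for the lines at the times, with a difference of 0.32 between the responses that did not pass limma's test either.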

How the results depend on the processing

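Counts are of genes past the threshold between the lines unless serum is named. With single arrays left out, the members' count ran from 1 to 2 in starved cells, from 0 to 2 after serum and from 2 to 3 in the average, and stayed 0 for serum. That of the other transporters ran from 4 to 7 (starved) and 5 to 9 (after serum), of the sensing and mTORC1 genes from 3 to 5 and 3 to 7, of the amino acid response from 1 to 2 and 2 to 4, and from 1 to 3 for serum in shControl. That of the serine, glycine and folate-cycle enzymes ran from 2 to 3 and 1 to 4, of the glutamine, glutamate and glutathione enzymes from 1 to 2 at both times, and of the tRNA synthetases it stayed 0 in starved cells and ran from 0 to 1 after serum.

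With an intensity trend the members' counts were 2 (starved), 4 (after serum), 5 (average) and 1 (serum, average of the lines). The trend gave 13 sensing genes after serum, 5 response genes in starved cells and 2 for serum in shCDK8 cells, 5 and 7 glutamine, glutamate and glutathione enzymes, and 2 and 3 synthetases. With dim genes left out there were 2 members and 1 synthetase in starved cells and 2 synthetases after serum. Cyclic loess gave 2 members and 2 synthetases in starved cells. Median centring gave 2 members, 4 sensing genes and 1 response gene in starved cells, and 1 glutamine, glutamate and glutathione enzyme and 0 synthetases after serum. The compared arrays alone gave 5 other transporters and 3 sensing genes in starved cells and 1 glutamine, glutamate and glutathione enzyme after serum. The mean of probe sets gave 1 member after serum. Where the cause of such a move is not the smaller number of arrays or genes, the cause was not tested.

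With the replicate number as a block the members' counts were 1, 2 and 3 between the lines and 0 for serum, the same as without it. The block took the response genes in starved cells from 3 to 1. It ended the calls of DDIT3 (adjusted p = 0.0658), SESN2 (0.0650) and PPAT (0.0511) in starved cells and of GSR (0.0569) and GLDC (0.0524) after serum (limma). The other counts kept within 1.5 times. The arrays share only a number, since same-numbered arrays did not deviate together.

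Signs turned only in differences that were not past the threshold. Median centring turned SLC38A1 with serum in shControl (0.010), SLC38A2 between the starved lines (0.0081), and SLC7A5 (0.013) and SLC1A4 (0.016) with serum in shControl. Cyclic loess turned SLC38A2 between the starved lines (0.030) and SLC1A4 with serum in shControl (0.039) and shCDK8 cells (0.015). The mean of probe sets turned SLC1A5 with serum in shControl (-0.059). Without single arrays the difference between the starved lines ran from -0.057 to 0.029 for SLC38A2, from -0.0078 to 0.062 for SLC3A2 and from -0.020 to 0.067 for SLC6A9, which ran from -0.028 to 0.18 after serum. The change with serum in shControl ran from -0.075 to 0.039 for SLC7A5, from -5e-05 to 0.070 for SLC3A2, from -0.084 to 0.052 for SLC1A4 and from -0.014 to 0.067 for SLC1A5. In shCDK8 cells it ran from -0.026 to 0.36 for SLC38A5, from -0.092 to 0.032 for SLC1A4 and from -0.016 to 0.15 for SLC1A5. Of the values of single genes under alternatives, 1077 kept direction and side of the threshold, 99 lost and 9 gained a call, and 24 turned. The 1077 include the differences of SLC38A5 between the lines, which had no test. These were counted as kept when they moved by no more than the largest standard deviation of its duplicate arrays. The difference of SLC38A5 between the lines ran from -3.31 to -2.92 in starved cells and from -2.90 to -2.85 after serum. With 2 arrays a group, shifts of 0.5 were recovered less often on simulated data than shifts of 1.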
